A study of Mus musculus with 7 samples.

Results

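The enzymes described here clear alcohols, aldehydes and ketones. They were chosen by gene symbol, and the choice was made with their values under electrical pulse stimulation (EPS) against control already known, so those values are a description: no p-value is given for them, and where they are counted against the thresholds used for all genes, nothing is read from the count. There are 10 of them among the 26607 genes listed: the alcohol dehydrogenases Adh7, Adh1 and Adh5, the aldehyde dehydrogenases Aldh1a1, Aldh1a7 and Aldh2, the aldo-keto reductase Akr1b8, the carbonyl reductases Cbr1 and Cbr3, and the alkenal reductase Ptgr1. All 10 symbols were present, and 9 had at least 1 read in some library.

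Alcohol dehydrogenases oxidize alcohols to aldehydes, and aldehyde dehydrogenases oxidize these further to acids. Aldo-keto reductases and carbonyl reductases work the other way and spend NADPH to turn aldehydes and ketones into alcohols and to reduce quinones. Alkenal reductases saturate the reactive double bond of lipid peroxidation products. Muscle meets such carbonyls when its membranes are oxidized, and some of the same enzymes make retinoic acid from retinol.

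RNA was sequenced from C2C12 myotubes, which are fused cells of a mouse myoblast line, so all libraries come from 1 line, and no genetic change is named for either group. The control group was left unstimulated and has 3 libraries, numbered 1, 3 and 4. The EPS group has 4 libraries, numbered 1 to 4, from myotubes that received electrical pulses for a day, beginning after some days of differentiation in low serum, and then rested for about an hour. Each library is a separate sample in the labels, which do not say whether the cultures were made on separate days and give no batch, so p-values below measure the spread between these samples only.

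Levels are in CPM, the reads of a gene per 1000000 reads on all listed genes. The libraries held 16616917 to 22120641 reads, and 3 reads, taken as the floor for counting error only, came to 0.136 to 0.181 CPM. Control replicate 4 stood apart: it had 359 genes with 1 to 5 reads where the other libraries had 2670 to 3181. In limma on log2(CPM + 1), a gene was counted as up- or down-regulated at an unadjusted two-sided P under 0.01 with more than a 2-fold change. Of the 19144 genes tested, 185 were up-regulated (0.966%) and 84 were down-regulated (0.439%). The split was 130 to 122 under quantile normalization and 134 to 120 under median-of-ratios scaling, and these scalings moved the median change over the 12256 genes that average at least 1 CPM from 0.10 in log2 to 0.0052 and -0.0048.

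Markers of the cells were measured beside the enzymes. All 7 myotube markers measured (Myog, Myh3, Myh8, Ckm, Acta1, Des and Tnnt3) had lower means in the EPS group (6 of 7 after quantile normalization, and 6 of 7 without control replicate 4, where Tnnt3 was higher). Myog averaged 943.9 CPM in the control, or 518.8 CPM without control replicate 4, against 392.4 CPM with EPS. For the 7 myotube markers, the summed level was 9269 to 14323 CPM in the control and 7722 to 10643 CPM in the EPS group. Of 6 myoblast and cycling markers (Myf5, Pax7, Mki67, Top2a, Ccnb1 and Cdk1), 5 had higher means. Their sums were 217.7 to 312.8 CPM in the control and 333.2 to 924.7 CPM in the EPS group, highest in EPS replicate 4. The myoblast markers themselves differed little, Myf5 at 6.11 CPM in the control and 7.41 CPM with EPS, and Pax7 at 20.2 and 18.1 CPM. None of these 13 genes was counted as changed in limma, where 4 cycling markers, all higher, and 0 myotube markers had an unadjusted P under 0.05, as had 8.4% of all genes with higher and 3.21% with lower levels in the EPS group. Both edgeR and DESeq2 called 2 cycling markers higher and 1 myotube marker lower, where edgeR called 1.72% of all genes higher and 1.57% lower, and DESeq2 1.66% and 1.4%. Of 10 markers of fat, blood, endothelial, epithelial, liver and glial cells, Alb, Cidec, Epcam and Plin1 were at 0 reads in every library, and the list summed to 0.933 to 1.99 CPM in the control and 1.16 to 2.18 CPM in the EPS group. In bulk RNA, a change in the number of cells of a type and a change in RNA per cell cannot be told apart, and the part of these markers in the levels below was not tested.

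The promoters of 3 members are shown because they span the range of the response, from Adh7 and Cbr3, the members past both thresholds, to Adh5, which lies in the same gene cluster as Adh7 and had the smallest difference among the well detected members. Each line gives the 250 bases ahead of an annotated RefSeq start on GRCm38.p6, on the plus strand of the genome. Capitals mark matches to the motifs named after the sequences.
Adh7 at chr3:138217523-138217772: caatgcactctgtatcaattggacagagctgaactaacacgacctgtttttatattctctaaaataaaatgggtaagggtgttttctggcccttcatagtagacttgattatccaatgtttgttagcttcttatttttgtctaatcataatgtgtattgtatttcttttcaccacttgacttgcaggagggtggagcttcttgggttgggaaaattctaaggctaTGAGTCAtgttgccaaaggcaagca
Adh5 at chr3:138442843-138443092: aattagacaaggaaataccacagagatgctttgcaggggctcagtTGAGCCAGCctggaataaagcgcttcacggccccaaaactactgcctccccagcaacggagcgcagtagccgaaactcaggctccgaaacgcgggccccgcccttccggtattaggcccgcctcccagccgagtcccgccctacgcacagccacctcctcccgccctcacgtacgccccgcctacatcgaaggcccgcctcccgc
Cbr3 at chr16:93682969-93683218: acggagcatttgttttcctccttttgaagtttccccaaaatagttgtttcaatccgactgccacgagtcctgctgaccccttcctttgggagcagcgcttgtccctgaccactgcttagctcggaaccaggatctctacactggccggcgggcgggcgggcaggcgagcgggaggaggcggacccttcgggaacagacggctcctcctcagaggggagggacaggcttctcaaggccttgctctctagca

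Both strands of these windows were searched for TGACNNNGC and TGAGNNNGC, which are forms of the antioxidant response element bound by NRF2, for GCGTG, the core bound by the aryl hydrocarbon receptor (AHR), and for TGANTCA, bound by AP-1 factors. The first 3 letters are shared by the antioxidant and AP-1 motifs, but no match of one overlapped a match of another. Windows were found for 9 members, with 11 starts in all, and none for Aldh2. Most of these starts lie within 0.132 kb of the start of the gene span given below, but the Adh1 start lies 16.594 kb, the Cbr1 start 1.984 kb and the second Aldh1a1 start 109.253 kb inside that span, and the other Adh5 start lies ahead of it. The Adh7 window held TGAGTCA from 25 to 19 bases ahead of the start, and the first of the Aldh1a1 starts held TGACTCA from 57 to 51 bases ahead. TGANTCA was found in 6.75% of all 32851 windows of the same length. The Adh5 window held TGAGCCAGC from 205 to 197 bases ahead, and the window of the other Adh5 start held TGAGCAAGC from 29 to 21 bases ahead. TGAGNNNGC was found in 14.4% of all windows. The Cbr3 window held none of the 4 motifs, nor did those of Adh1 and Ptgr1. Akr1b8 and Cbr1 held GCGTG, found in 28.2% of all windows, and no member held TGACNNNGC, found in 10.2%. Aldh1a1, at the second of its starts, and Aldh1a7 both held TGAGTCTGC from 85 to 77 bases ahead, in windows that were 65.3% identical over the alignment. G and C made up 38% of the Adh7 window, 63.6% of the Adh5 window and 59.6% of the Cbr3 window, against a median of 52.4% over all windows. A match is a string of letters and not a shown binding site, and a window without one says only that these letters are not there.

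Among the alcohol dehydrogenases, Adh7 differed most. Adh7 (ENSMUSG00000055301.8, chromosome 3 from 138217760 to 138233382, plus strand) encodes the class IV enzyme, which oxidizes retinol and ethanol and is best known from the lining of the upper digestive tract. Its level was 11.7, 16.0 and 8.72 CPM in control replicates 1, 3 and 4, and 36.8, 209.8, 182.3 and 252.8 CPM in EPS replicates 1 to 4. Every EPS library lay above every control library, and EPS replicate 1 lay far below the other EPS libraries. The means were 12.1 ± 3.66 CPM without EPS (SD, n = 3) and 170.4 ± 93.7 CPM with it (SD, n = 4), and the mean difference in log2(CPM + 1) was 3.44 (SE 0.60). Without EPS replicate 1 the log2 fold change was 4.06, and without control replicate 4 it was 3.24.

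Adh5 (ENSMUSG00000028138.8, chromosome 3 from 138443093 to 138455499, plus strand), the class III enzyme, oxidizes the glutathione adduct of formaldehyde and reduces S-nitrosoglutathione. Its level was 66.8, 82.6 and 96.3 CPM in control replicates 1, 3 and 4, and 99.5, 125.2, 86.0 and 116.2 CPM in EPS replicates 1 to 4. The groups overlapped, because EPS replicate 3 fell below control replicate 4. The means were 81.9 ± 14.8 CPM (SD, n = 3) and 106.7 ± 17.5 CPM (SD, n = 4), and the mean difference in log2(CPM + 1) was 0.38 (SE 0.18). This difference was 0.24 without control replicate 1 and 0.50 without control replicate 4.

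Adh1 (ENSMUSG00000074207.10, chromosome 3 from 138260991 to 138290698, plus strand), the class I enzyme that handles most ethanol in the liver, was close to the floor. Its reads numbered 2, 5 and 0 across control replicates 1, 3 and 4, against 7, 32, 28 and 11 across EPS replicates 1 to 4. In CPM, the control libraries ran from 0 to 0.301 and the EPS libraries from 0.326 to 1.56, so the groups did not overlap, though EPS replicate 1 barely exceeded control replicate 3. Pooled over libraries, 7 of 55890114 control reads and 78 of 82732957 EPS reads fell on Adh1, a ratio of 7.53 with a 95% exact interval of 3.49 to 19.3 that covers counting error only. This ratio depends on control replicate 4, which gave 22120641 of the control reads and 0 of those on Adh1, and it is lower without that library. On the log2(CPM + 1) scale the difference was 0.72 (SE 0.22), a scale that shrinks low genes, and 0.63 without control replicate 4, where low reads were scarce.

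These 3 genes span 237.74 kb of chromosome 3. The cluster members between them, Adh6a, Adh6b and Adh4, had 0 reads in all 7 libraries. Past its end, next to Adh5, the methionine aminopeptidase gene Metap1 was at 57.3 ± 2.30 CPM without EPS (SD, n = 3) and 69.4 ± 10.1 CPM with it (SD, n = 4), a difference of 0.26 in log2 (limma adjusted p = 0.57). Within this stretch, Adh7 alone passed both thresholds in limma on the log2(CPM + 1) scale.

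**Figure D1:**
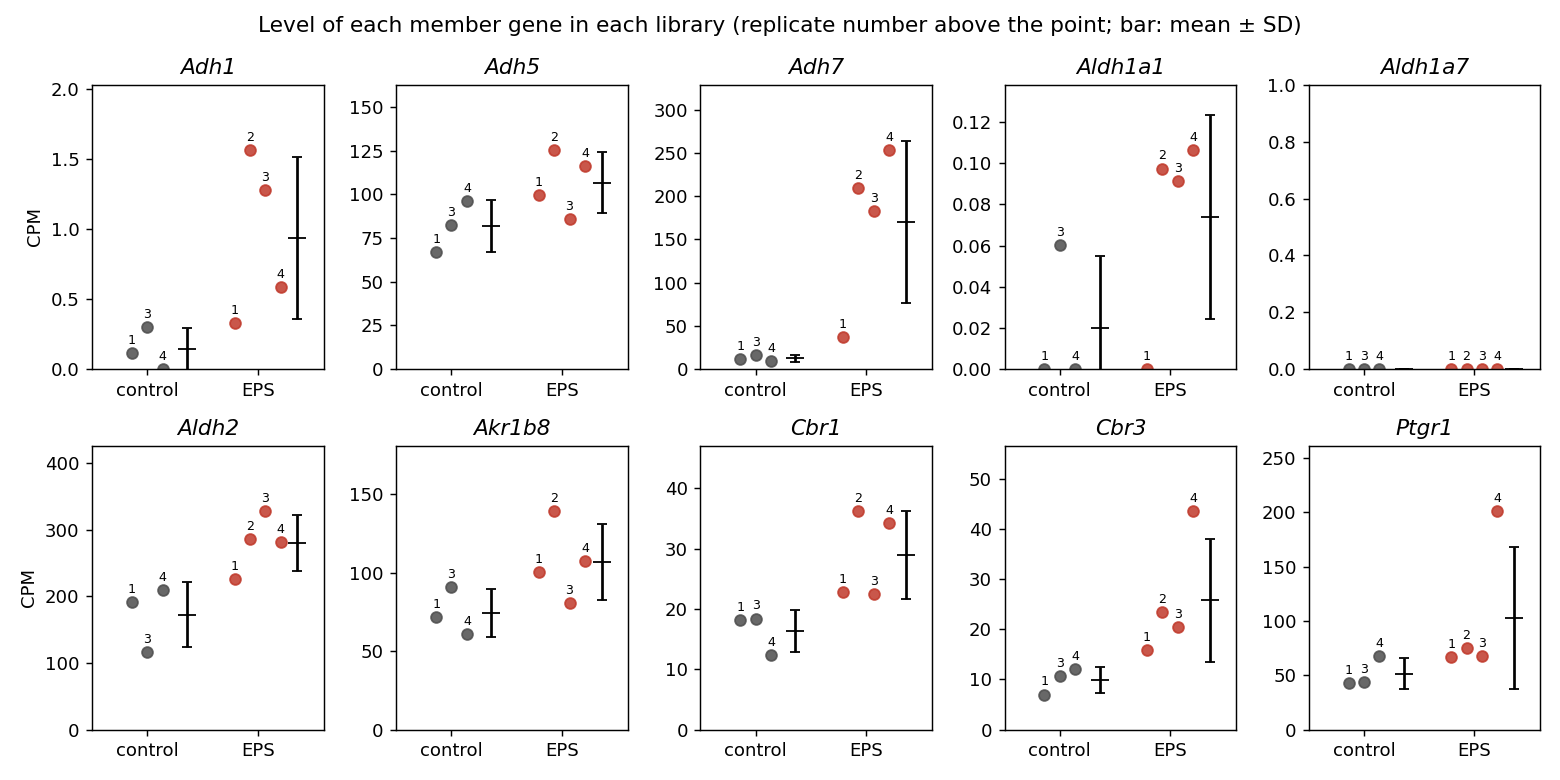
Level of each of the 10 enzymes in CPM in every library. Grey points are the 3 control libraries and red points the 4 EPS libraries, with the replicate number above each point, and the bar beside each group is its mean ± SD; every panel has its own axis, starting at 0. Adh7 in EPS replicates 2, 3 and 4 lies between 182.3 and 252.8 CPM against 36.8 CPM in EPS replicate 1, and Aldh1a7 is at 0 throughout.

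Aldh2 (ENSMUSG00000029455.14, chromosome 5 from 121566027 to 121593824, minus strand) encodes the mitochondrial enzyme that oxidizes acetaldehyde and the lipid aldehyde hydroxynonenal. Its level was 191.6, 117.1 and 208.9 CPM in control replicates 1, 3 and 4, and 226.2, 285.6, 327.6 and 281.5 CPM in EPS replicates 1 to 4. All EPS libraries lay above all control libraries, and control replicate 3 was the lowest of the 7. The means were 172.5 ± 48.8 CPM (SD, n = 3) and 280.2 ± 41.6 CPM (SD, n = 4), and the mean difference in log2(CPM + 1) was 0.73 (SE 0.23). This difference was 0.47 without control replicate 3 and 0.89 without control replicate 4.

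The cytosolic members Aldh1a1 and Aldh1a7 were at or under the floor. Aldh1a1 (ENSMUSG00000053279.8, chromosome 19 from 20492715 to 20643465, plus strand), which makes retinoic acid from retinal, drew 0, 1 and 0 reads across control replicates 1, 3 and 4, and 0, 2, 2 and 2 across EPS replicates 1 to 4. No library exceeded 3 reads, so no fold is given. Aldh1a7 (ENSMUSG00000024747.3, chromosome 19 from 20692953 to 20727562, minus strand), a close copy of Aldh1a1 in rodents, had 0 reads in all 7 libraries, which allows up to 0.0537 CPM in the pooled control and 0.0363 CPM in the pooled EPS group. The coding sequences of Aldh1a1 and Aldh1a7 were 91.6% identical over 1506 aligned bases, and their transcripts shared an identical run of 100 bases, the length of a read. How reads that map to several genes were counted is not given in the sources used here, so their values are uncertain. Next to them, the annexin gene Anxa1 was at 425.2 ± 121.4 CPM without EPS (SD, n = 3) and 490.9 ± 136.6 CPM with it (SD, n = 4). On their other side, Tmc1 was at 0.0194 CPM in the control mean and at 0 reads in every EPS library.

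Akr1b8 (ENSMUSG00000029762.6, chromosome 6 from 34354119 to 34368463, plus strand) encodes a reductase related to aldose reductase that acts on aldehydes of many kinds. Its level was 71.6, 91.2 and 60.8 CPM in control replicates 1, 3 and 4, and 100.5, 139.2, 80.9 and 107.5 CPM in EPS replicates 1 to 4. The groups overlapped, because EPS replicate 3 fell below control replicate 3. The means were 74.5 ± 15.4 CPM (SD, n = 3) and 107.0 ± 24.2 CPM (SD, n = 4), and the mean difference in log2(CPM + 1) was 0.51 (SE 0.21). The coding sequence was 85.1% identical to that of Akr1b10 and 85.0% to that of Akr1b7, with identical runs of at most 80 bases, shorter than a read.

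Cbr3 and Cbr1 lie near each other on chromosome 16, within 85.138 kb and with the annotated gene Gm5678 between them, and both encode short-chain reductases of ketones and quinones that use NADPH. Cbr3 (ENSMUSG00000022947.8, from 93683215 to 93690990, plus strand) was at 7.0, 10.6 and 12.0 CPM in control replicates 1, 3 and 4, and at 15.8, 23.3, 20.4 and 43.5 CPM in EPS replicates 1 to 4. The groups did not overlap, and EPS replicate 4 was highest by far. The means were 9.86 ± 2.57 CPM (SD, n = 3) and 25.8 ± 12.2 CPM (SD, n = 4), and the mean difference in log2(CPM + 1) was 1.23 (SE 0.34). Cbr3 was no longer past both thresholds without control replicate 1 (1.03), control replicate 3 (1.29), EPS replicate 2 (1.24) or EPS replicate 4 (0.95).

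Cbr1 (ENSMUSG00000051483.9, from 93605853 to 93610505, plus strand), which also reduces prostaglandins, was at 18.2, 18.4 and 12.3 CPM in control replicates 1, 3 and 4, and at 22.9, 36.2, 22.5 and 34.3 CPM in EPS replicates 1 to 4. The groups did not overlap, with EPS replicates 2 and 4 above the other EPS libraries. The means were 16.3 ± 3.49 CPM (SD, n = 3) and 28.9 ± 7.30 CPM (SD, n = 4), and the mean difference in log2(CPM + 1) was 0.78 (SE 0.25), or 0.60 without control replicate 4. The coding sequences of Cbr1 and Cbr3 were 77.5% identical, with no identical run over 50 bases. The gene ahead of Cbr1, Setd4, was at 2.77 ± 1.09 CPM without EPS (SD, n = 3) and 2.07 ± 0.653 CPM with it (SD, n = 4), with a log2 fold change of -0.28 (limma adjusted p = 0.77).

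Ptgr1 (ENSMUSG00000028378.6, chromosome 4 from 58965439 to 58987119, minus strand) encodes the reductase that saturates hydroxynonenal and keto-prostaglandins. Its level was 42.7, 43.7 and 67.8 CPM in control replicates 1, 3 and 4, and 67.2, 75.2, 68.2 and 201.1 CPM in EPS replicates 1 to 4. EPS replicate 4 stood far above the rest, and the groups met where EPS replicate 1 fell just below control replicate 4. The means were 51.4 ± 14.2 CPM (SD, n = 3) and 102.9 ± 65.5 CPM (SD, n = 4), and the mean difference in log2(CPM + 1) was 0.85 (SE 0.38). This difference was 0.47 without EPS replicate 4 and 1.06 without control replicate 4.

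Counted together, 2 of the 9 members with reads passed both thresholds, Adh7 and Cbr3, where 0.966% of all genes did so in that direction, and none passed them in the other. In 5 members (Adh7, Adh1, Aldh2, Cbr1 and Cbr3) every EPS library lay above every control library, where 7.76% of all genes tested were so separated, and in 2.85% of all genes every EPS library lay below. The median log2 fold change was 0.73 over these 9 members, 0.78 over the 7 with a mean of at least 1 CPM and 0.041 over all genes tested. Because the members were selected on this contrast, nothing is read from these counts. Adh1 joined the 2 members under pseudocounts of 0.1 and 0.5 and in edgeR and DESeq2 run on the recovered reads, and under none of the alternatives tried, at most 16 per member, did the difference of a member change sign.

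Levels can be set side by side between genes only per length, here in CPM per kb of the longest coding transcript. In the control, Akr1b8 (54.9 ± 11.4), Adh5 (51.0 ± 9.21) and Aldh2 (44.6 ± 12.6) were the highest, and these neighbours did not differ beyond their spread. They were followed by Ptgr1 (22.4 ± 6.18), Cbr1 (13.2 ± 2.82), Cbr3 (8.42 ± 2.20), Adh7 (3.53 ± 1.07) and Adh1 (0.0933 ± 0.102, all SD, n = 3). In the EPS group, Akr1b8 (78.8 ± 17.9), Aldh2 (72.5 ± 10.8) and Adh5 (66.5 ± 10.9) had the 3 highest means, again within their spread, and Adh7 reached 49.7 ± 27.3, next to Ptgr1 at 44.8 ± 28.5. Cbr1 (23.4 ± 5.90) and Cbr3 (22.0 ± 10.5) then lay within each other's spread, and Adh1 stayed lowest at 0.628 ± 0.387 (all SD, n = 4). By its mean, Adh7 was below Cbr1 and Cbr3 in the control and above them with EPS, but its EPS mean lay within the spread of Ptgr1, and in EPS replicate 1, at 10.7 CPM per kb, it was still below Cbr1 (18.5) and Cbr3 (13.5).

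**Figure D2:**
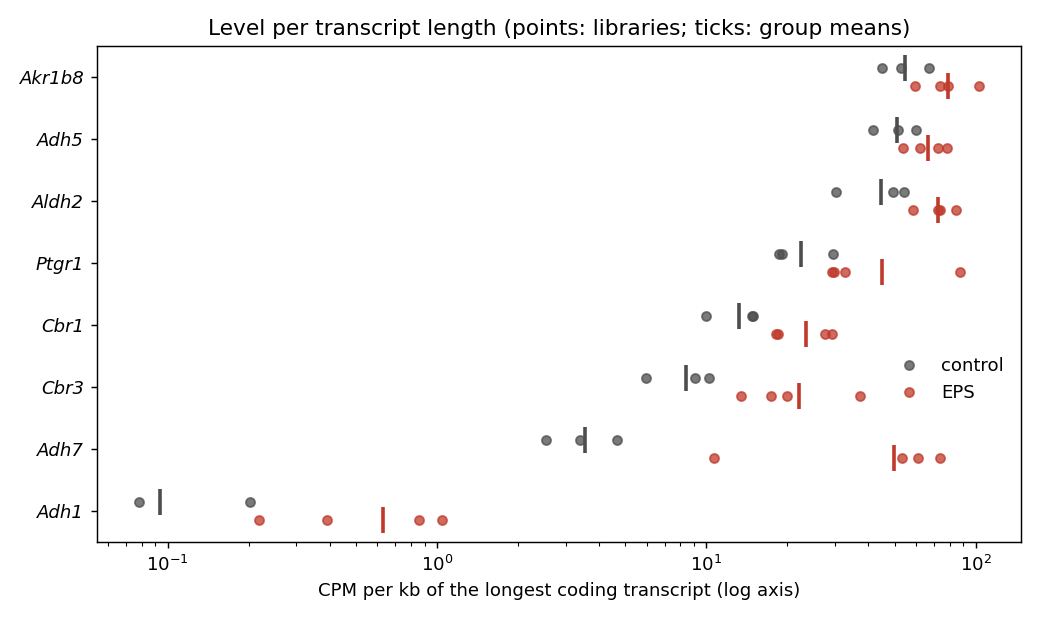
Level of 8 of the enzymes in CPM per kb of the longest coding transcript, on a log axis. Grey points are control libraries, red points EPS libraries and upright ticks the group means; Aldh1a1 and Aldh1a7 are left out, and Adh1 in control replicate 4, at 0, has no place on this axis. Adh7 sits at 2.54 to 4.66 CPM per kb in the control and at 53.1 to 73.7 CPM per kb in EPS replicates 2, 3 and 4, but at 10.7 CPM per kb in EPS replicate 1; Akr1b8, Adh5 and Aldh2 have the highest means in both groups, and Ptgr1 (87.6) is the highest in EPS replicate 4.

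The summed level of the 10 enzymes was 418.8 ± 44.1 CPM without EPS (SD, n = 3) and 823.0 ± 197.5 CPM with it (SD, n = 4). The single libraries gave 409.7, 379.9 and 466.7 CPM in control replicates 1, 3 and 4, and 569.1, 896.2, 789.2 and 1037 CPM in EPS replicates 1 to 4. Adh7 made up 1.87 to 4.21% of that sum in the control, 6.46% in EPS replicate 1, and 23.4%, 23.1% and 24.4% in EPS replicates 2, 3 and 4. Aldh2 gave 30.8 to 46.8% of it in the control and 27.1 to 41.5% in the EPS group.

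The EPS libraries did not differ from the control by the same amount. Over the 7 enzymes with a mean of at least 1 CPM, the median difference from the control mean, in log2(CPM + 1), was 0.45 in EPS replicate 1, 0.91 in EPS replicate 2, 0.46 in EPS replicate 3 and 1.05 in EPS replicate 4. EPS replicate 1 was the lowest EPS library for Adh7, Aldh2, Cbr3 and Ptgr1, and EPS replicate 3 for Adh5, Akr1b8 and Cbr1. EPS replicate 4 was the highest for Adh7, Cbr3 and Ptgr1, EPS replicate 2 for Adh5, Akr1b8 and Cbr1, and EPS replicate 3 for Aldh2. Among the other 183 up-regulated genes, EPS replicate 1 was the lowest EPS library in 49.7% and EPS replicate 4 the highest in 45.9%.

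**Figure D3:**
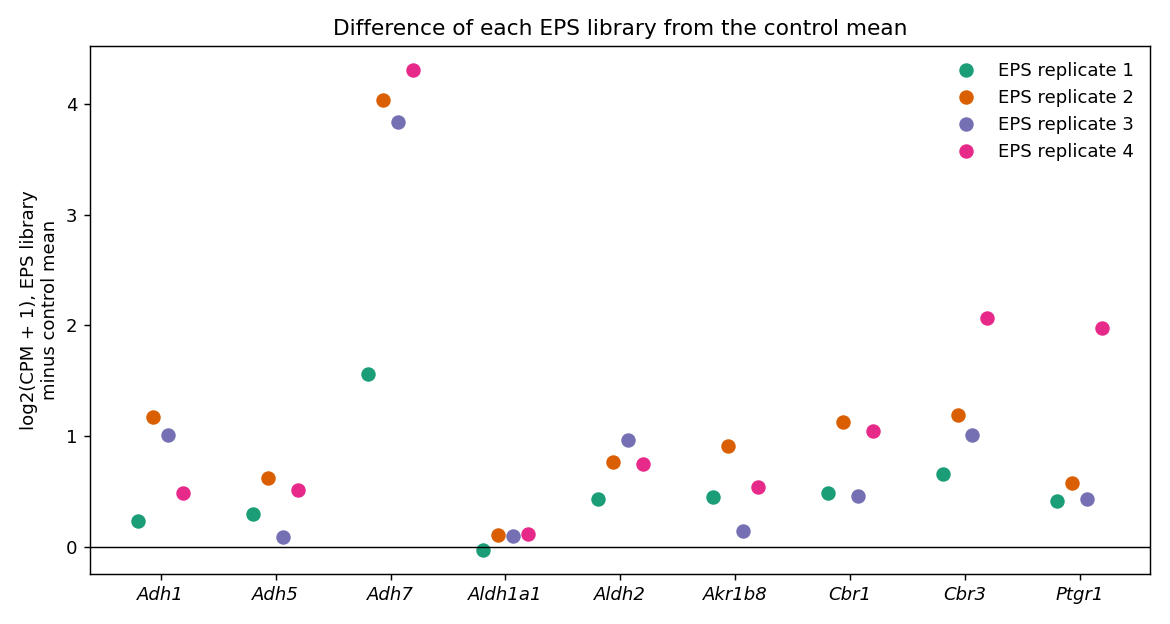
Difference of each EPS library from the control mean, in log2(CPM + 1), for the 9 enzymes with reads. Colours mark EPS replicates 1 to 4 and the line at 0 is the control mean. Adh7 shows 1.56 in EPS replicate 1 and 3.84 to 4.31 in the others, and Ptgr1 shows 1.98 in EPS replicate 4 and 0.41 to 0.57 in the others.

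Correlations over the 7 libraries describe which enzymes ran alike and carry no test, since the libraries share the split into control and EPS and the scaling to CPM. Pearson's r of log2(CPM + 1) was 0.92 for Cbr3 with Ptgr1, 0.91 for Akr1b8 with Cbr1 and 0.89 for Adh7 with both Cbr1 and Cbr3. It was lowest, at 0.29, for Aldh2 with Akr1b8. Among 12249 other genes with a mean of at least 1 CPM, the 5 nearest to Adh7 were Otop1, Pigl, Ampd3, Serpinb9b and Hmox1, with r from 0.98 to 0.99. For Cbr3 they were Sqstm1, Gdf15, Ankrd6, Taldo1 and Srxn1 (0.98 to 0.99), and for Aldh2 they were Slc4a11, Git1, Vegfb, Nudt18 and Slc39a8 (all 0.97). The 5 nearest to Aldh1a1, led by Fam63a at 0.99, rest on 0 to 2 reads of Aldh1a1 per library.

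The rest of each enzyme family was not part of the choice of members and was tested. Of 57 relatives and partner enzymes listed, 56 were in the files and 49 were tested, and 4 of them were up-regulated in limma, where 0.966% of all genes were. No relative was down-regulated, by limma, edgeR or DESeq2 (0.439% of all genes by limma), and in limma 6 relatives were higher and 2 lower at an unadjusted P under 0.05 (8.4% and 3.21% of all genes). Every EPS library lay above every control library in 7 relatives and below in 1, Aldh18a1, against 7.76% and 2.85% of all genes. Their median log2 fold change was 0.13 (0.27 without control replicate 4), and 40 of the 49 averaged at least 1 CPM. Higher means were seen in 35 and lower means in 14, where all 19144 genes tested split into 12123 higher and 7021 lower. The split of the relatives was 31 to 18 after median-of-ratios scaling, 29 to 20 after quantile normalization and 27 to 22 in edgeR and DESeq2. The lists of relatives were drawn up with earlier results of these data known, so their counts are not independent evidence.

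The up-regulated aldehyde dehydrogenase was Aldh3a1, which oxidizes aromatic and lipid aldehydes in the cornea and stomach. It was at 8.22, 3.91 and 12.3 CPM in control replicates 1, 3 and 4, and at 74.0, 462.8, 486.2 and 1314 CPM in EPS replicates 1 to 4, with no overlap and, as for Adh7, the lowest EPS value in replicate 1. Its log2 fold change was 5.52 (SE 0.82, limma adjusted p = 0.057). Of the 17 aldehyde dehydrogenase relatives tested, 8 had higher and 9 lower means (6 and 11 after quantile normalization), with a median of -0.017, or 0.017 without control replicate 4. Aldh18a1, which makes a precursor of proline, was at 71.6 to 88.0 CPM in the control and at 44.7 to 65.8 CPM with EPS, with a log2 fold change of -0.58 (SE 0.17, limma adjusted p = 0.23) that fell short of 2-fold.

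Esd encodes S-formylglutathione hydrolase, which takes the product of Adh5 on to formate. It was at 199.4, 231.7 and 189.0 CPM in control replicates 1, 3 and 4, and at 842.7, 1445, 924.9 and 1569 CPM in EPS replicates 1 to 4. The groups were far apart, with a log2 fold change of 2.48 (SE 0.27, limma adjusted p = 0.023), against 0.38 for Adh5 itself. In limma on log2(CPM + 1) with all 19144 genes, Esd was the single relative with an adjusted p under 0.05, a threshold that 0.0992% of all genes passed with higher and 0.0418% with lower levels in the EPS group. When a library was left out, the adjusted p of Esd in limma stayed under 0.05 only without EPS replicate 1 (0.016). It was 0.051 to 0.11 otherwise. With the replicate block it was 0.084 on 6 libraries and 0.51 on all 7, both at a log2 fold change of 2.37. On all 7, EPS replicate 2 is alone in its block and adds nothing to the estimate. These forms differ only through the set of genes tested (18869 and 19144), from which limma draws the variance that genes share. Aldh3a1, Akr1c14 and Dhrs7 also had an adjusted p under 0.05 with a minimum mean of 1 CPM (0.0051, 0.030 and 0.047) and in edgeR (3.5e-05, 0.0027 and 0.024) and DESeq2 (2.7e-08, 1.9e-05 and 0.0024), and Aldh3a1 and Akr1c14 with a pseudocount of 0.1 (0.0071 and 0.049), Aldh3a1 with 0.5 (0.034) and without EPS replicate 1 (0.0054). The glyoxalase and deglycase partners Glo1, Hagh and Park7, which deal with methylglyoxal, had log2 fold changes of 0.05, 0.17 and 0.12 (limma adjusted p of 0.92, 0.87 and 0.89). In edgeR and DESeq2 all 3 were lower in the EPS group. Without control replicate 4, all 4 partners, Esd among them, were higher, with a median of 0.54 against 0.14 with that library. It held the highest control levels of Hagh (43.4 CPM against 19.8 and 21.9 CPM) and Park7 (203.2 CPM against 88.7 and 72.0 CPM).

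Among the aldo-keto reductases, Akr1c14, a hydroxysteroid dehydrogenase, was at 3.26, 3.31 and 1.94 CPM in control replicates 1, 3 and 4, and at 6.75, 17.3, 9.0 and 19.3 CPM in EPS replicates 1 to 4. The groups did not overlap, and the log2 fold change was 1.78 (SE 0.38, limma adjusted p = 0.12). With the replicate block Akr1c14 was called on 6 libraries but not on all 7, both at 1.62, which differ as described for Esd. All 11 aldo-keto relatives tested had higher means with EPS (median difference 0.32 in log2), as had 12123 of all 19144 genes tested. Of the 11, 7 averaged at least 1 CPM, and Akr1c18 and Akr1c21 had only 2 reads each, in 1 EPS library. The number higher was 10 under quantile normalization or without control replicate 4, and 9 under median-of-ratios scaling and in edgeR and DESeq2. In limma 10 of the 11 were not called. Aldose reductase itself, Akr1b3, was at 205.0 ± 43.7 CPM (SD, n = 3) and 355.5 ± 78.0 CPM (SD, n = 4), with no overlap and a change of 0.79 (limma adjusted p = 0.22) that fell short of 2-fold.

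Dhrs7, a short-chain reductase of the same family as Cbr1 and Cbr3, was at 20.7, 24.7 and 14.5 CPM in control replicates 1, 3 and 4, and at 37.7, 56.1, 35.9 and 50.1 CPM in EPS replicates 1 to 4. Its groups did not overlap, and its log2 fold change was 1.14 (SE 0.23, limma adjusted p = 0.10), but 0.93 and no longer 2-fold without control replicate 4. With the replicate block Dhrs7 was likewise called on 6 libraries but not on all 7, both at 1.02. Dhrs7c, a muscle member of this family, had a log2 fold change of -0.84 (limma adjusted p = 0.23) and passed both thresholds only without EPS replicate 1. None of the 6 relatives of Ptgr1 passed both thresholds in limma, edgeR or DESeq2, and of these Cryz, a quinone reductase, had the largest log2 fold change, 0.51 (limma adjusted p = 0.39), and was the 1 with an unadjusted P under 0.05 in limma.

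**Figure D4:**
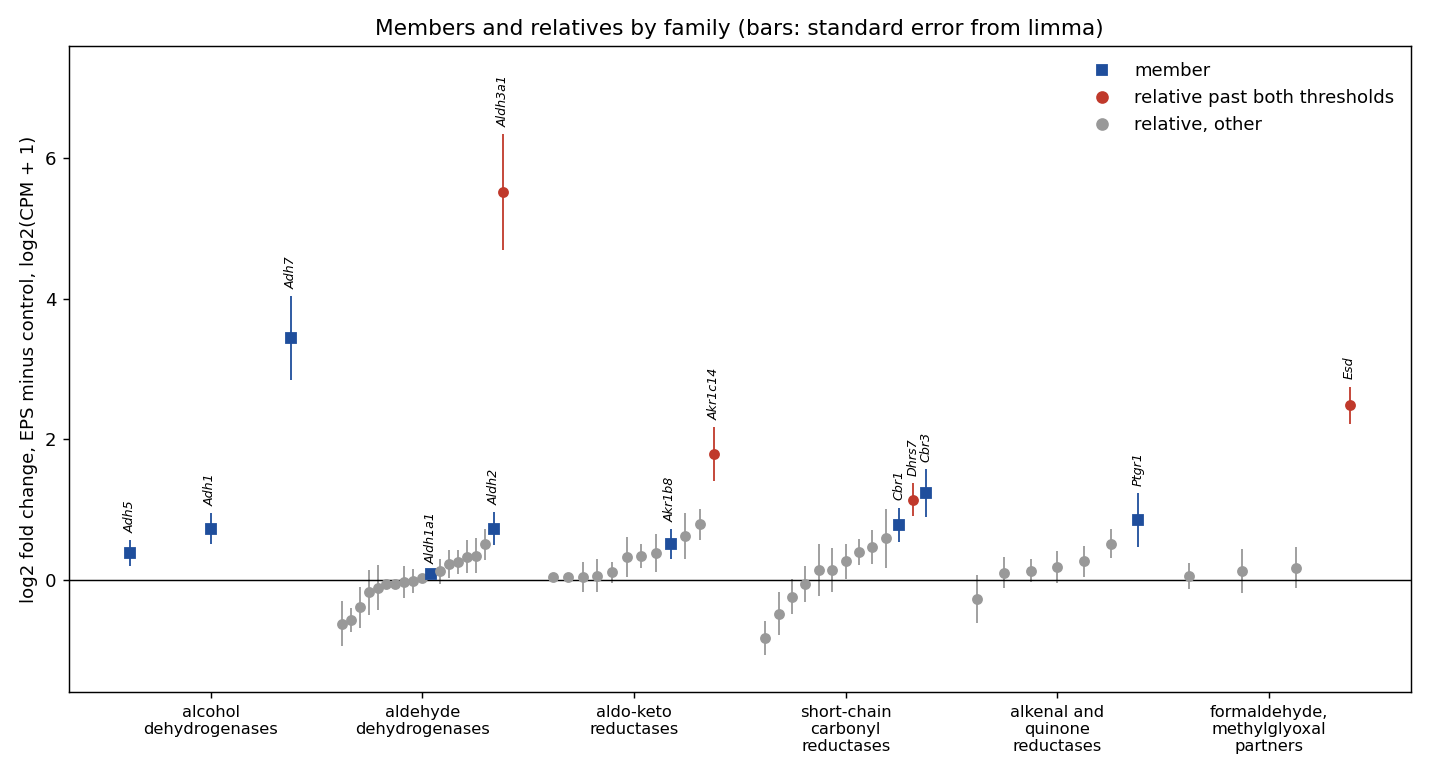
Log2 fold change, EPS minus control on the log2(CPM + 1) scale, for the enzymes described here (blue squares), the 4 up-regulated relatives (red) and the other relatives tested (grey), by family. Bars are the standard error from limma. Aldh3a1 (5.52), Adh7 (3.44) and Esd (2.48) stand highest, and most grey points lie near 0.

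Because Adh7 and Aldh1a1 act on retinol and retinal, genes of retinoid handling and of the retinoic acid response were listed beside them. None of the 16 tested passed both thresholds in limma (1 had an unadjusted P under 0.05), edgeR called 1 lower and DESeq2 called none, and their median log2 fold change was 0.030, or -0.025 under quantile normalization and -0.011 under median-of-ratios scaling. The retinol uptake receptor Stra6 was at 1.53 ± 1.26 CPM (SD, n = 3) and 3.35 ± 1.18 CPM (SD, n = 4), with a log2 fold change of 0.85 (limma adjusted p = 0.39). Cyp26a1, which breaks down retinoic acid and is induced by it, was at 3.58 ± 2.32 CPM (SD, n = 3) and 1.55 ± 0.962 CPM (SD, n = 4), with a log2 fold change of -0.80 (limma adjusted p = 0.46). The groups overlapped here too. Control replicate 4 was at 6.24 CPM against 2.51 and 1.99 CPM in control replicates 1 and 3, so the difference is smaller without it.

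Well-known targets of NRF2 and of AHR were set beside the enzymes, as reference genes for 2 transcription factors that induce detoxifying enzymes. Of 8 NRF2 targets, Nqo1 (4.51), Hmox1 (2.71), Gclm (1.93), Srxn1 (1.55), Txnrd1 (1.55) and Osgin1 (1.16) were up-regulated on the log2 scale, with 2 of them, Nqo1 and Hmox1, at an adjusted p under 0.05 in limma, while Gclc (0.77) and Slc7a11 (-0.26) were not called. When a library was left out, those adjusted p values stayed under 0.05 only without EPS replicate 1 and were 0.051 to 0.14 for Nqo1 and 0.091 to 0.12 for Hmox1 otherwise. They were 0.0532 and 0.0501 after quantile normalization, and 0.074 and 0.096 with the replicate block on 6 libraries and 0.51 for both on all 7. Srxn1 was not called without control replicate 1 (1.38) or 3 (1.56), nor Osgin1 without control replicate 1 (0.97) or 3 (1.16) or EPS replicate 2 (1.04) or 4 (1.00). Of 6 AHR targets, Aldh3a1, Nqo1, Ahrr (2.72) and Cyp1b1 (2.5) were up-regulated, as was Cyp1a1, at 0 reads in every control library, and Tiparp (1.24) was not. Tiparp did pass with a pseudocount of 0.1 or 0.5, with a minimum mean of 1 CPM, with the replicate block on 6 libraries (1.01, but not on all 7), without EPS replicate 1 (1.62), and in edgeR (1.26) and DESeq2 (1.25). When a library was left out, Cyp1a1 kept its call in limma only without EPS replicate 1, and Ahrr lost it without control replicate 3 (2.58). Cyp1a1 also lost it under quantile normalization (4.90). With the replicate block on all 7 libraries Cyp1a1 (4.45), Ahrr (2.48), Cyp1b1 (2.35), Gclm (1.90) and Txnrd1 (1.53) all lost theirs. Gclm and Txnrd1 passed both thresholds at these same values with the block on 6 libraries. As described for Esd, the form on all 7 adds no library to the estimate, so calls lost only there say nothing about the single gene. In EPS replicate 1, Cyp1a1 was at 0.0465 CPM against 70.0 to 139.7 CPM in the other EPS libraries and Ahrr at 1.21 CPM against 15.0 to 15.7 CPM. EPS replicate 1 was the lowest EPS library for all AHR targets listed and for the NRF2 targets Hmox1, Nqo1, Txnrd1, Osgin1, Gclc and Slc7a11 too. It was the lowest for 49.7% of the 183 up-regulated genes counted above, which include the targets called here. Ptgr1 and Cbr3 had their highest EPS level in replicate 4, as did Nqo1 (454.9 CPM against 45.3 to 163.5 CPM) and Srxn1 (189.5 CPM against 57.5 to 62.0 CPM) and 45.9% of those 183 genes. These targets come from the same libraries as the enzymes and give no independent support.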

How the data were processed

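Poly(A) RNA of 7 libraries was sequenced as paired-end reads of 100 bases. The authors mapped them to GRCm38 with STAR 2.5.4b and deposited CPM, one value per gene and library, not log-transformed. The read counter, annotation and use of strand are not given in the sources used here. All deposited CPM values were whole multiples of 1 read (100% within 0.02), so reads were recovered.

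Every gene with a read in some library was tested on log2(CPM + 1) with limma 3.58.1 in R 4.3.3 (trend, two-sided, no covariate), with calls made at a 2-fold change and P under 0.01, unadjusted. With 3 libraries against 4, an exact permutation test cannot go below 0.0286 and was not used. Alternatives were edgeR 4.0.16 and DESeq2 1.42.0 on the reads, a pseudocount of 0.1 or of 0.5, a filter at a mean of 1 CPM, quantile and median-of-ratios scaling, P under 0.001, the replicate number as a block, and leaving out each library. The fits were tested on simulated data. The members and lists were chosen with earlier results of these data known. Named genes are all members, list genes past both thresholds (full values for the 3 largest per direction), the NRF2 and AHR targets, and the 5 genes nearest in pattern to Adh7, Aldh1a1, Cbr3 and Aldh2. Other genes were named after their values were seen. Positions and transcripts are those of GENCODE M21, promoters those of RefSeq (GRCm38.p6). Identities were computed with Biopython 1.88.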

Additional observations from a re-analysis of the deposited data

Results flagged for a closer look

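Within the 4 EPS libraries, 8 of 25 named genes with reads had 1 library far from the other 3 by Dixon's criterion on log2(CPM + 1), where chance gives about 1 in 20 independent groups. These genes share the same 4 libraries and most were chosen with their values known, so this count is a description and is not set against that rate. Adh7 was at 36.8 CPM in EPS replicate 1 and at 182.3 to 252.8 CPM in the others. Aldh1a1 was at 0 CPM in EPS replicate 1, with 2 reads in each of the others, all under the floor of 3 reads. Ptgr1 was at 201.1 CPM in EPS replicate 4 and at 67.2 to 75.2 CPM in the others. In the same replicate, Srxn1 was at 189.5 CPM (others 57.5 to 62.0 CPM) and Slc7a11 at 37.3 CPM (others 15.7 to 17.6 CPM). In EPS replicate 1, Cyp1a1 was at 0.0465 CPM (others 70.0 to 139.7 CPM), Cyp1b1 at 265.0 CPM (others 927.4 to 1135 CPM) and Ahrr at 1.21 CPM (others 15.0 to 15.7 CPM). The cause was not tested.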

How the results depend on the processing

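The count of genes past both thresholds was 269, and it was 601 with a pseudocount of 0.1, 629 in edgeR, 585 in DESeq2 and 106 at P under 0.001, with 209 to 325 when a library was left out. The 4 relatives became 3 to 5 and the 2 members 1 to 2 when a library was left out, and 1 member, Adh7, passed at P under 0.001. With the replicate number as a block over the 6 libraries numbered 1, 3 and 4, the counts were 276 genes, 4 relatives and 2 members. With the block over all 7 libraries, a form added after the data were seen, they were 161, 2 (Aldh3a1 and Esd) and 2. In that form EPS replicate 2 is alone in its block, so the log2 fold changes equal those on 6 libraries. The counts differ only through the set of genes tested and the variance that limma shares across it. Whether libraries of the same number were paired is not given in the labels, and these values do not settle it. Deviations of same-numbered libraries correlated across 12256 genes at 0.25, -0.45 and 0.068, so not every library correlated best with its own number. Genes are not independent replicates. Of the member values under alternatives, 134 moved by less than 1 SD between replicates and 8 by more, all of Adh1 and Aldh1a1 under other pseudocounts or count models; none changed sign. Slc7a11, at -0.26, ranged from -0.54 (without EPS replicate 4) to 0.14 (without control replicate 4) when a library was left out; the cause was not tested. At these depths, Aldh1a1, Aldh1a7 and Adh1 in the control could not be told from a few reads.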
